A study of Mus musculus with 4 samples.

Results

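The genes described here encode the machinery that writes N6-methyladenosine (m6A) on RNA: Mettl3, Mettl14, Wtap, Virma (listed as 1110037F02Rik), Rbm15, Rbm15b, Zc3h13, Cbll1 and Mettl16. They are 9 of the 22481 gene symbols in the deposited table, chosen by symbol, and occupy 10 of its 22564 rows because Rbm15b is listed under 2 gene identifiers. RNA was sequenced from pancreatic islets of mice aged 2 weeks of the 129sv strain, in 2 knockout libraries (KO, genotype Ngn3Mettls KO) and 2 wild-type libraries (WT, genotype wild type). Each library pooled over 400 islets, and the labels name no separate animals or litters, so all p-values measure the spread between these pools. The genotype name points to Mettl genes and to Ngn3 (Neurog3, a gene of endocrine progenitors), but the labels give neither the alleles, the exons removed nor the driver of recombination.

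m6A is placed on newly made RNA in the nucleus. METTL3 transfers the methyl group from S-adenosylmethionine, and METTL14, its partner in a tight heterodimer, helps to hold the RNA. WTAP brings the pair to nuclear speckles, and VIRMA, RBM15, RBM15B, ZC3H13 and CBLL1 gather around WTAP as a regulatory assembly that guides the enzyme to its sites. METTL16 works apart from that complex, methylating the U6 small nuclear RNA and a hairpin of the Mat2a mRNA. In beta cells m6A is known for its part in insulin secretion and in maturation after birth.

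The enzymes differ in their catalytic motif, and its codons are shown because they set the catalytic subunit apart from its partner and from the separate enzyme. Capitals mark the codons of the motif, in the reference coding sequence (GENCODE transcripts, mm10), 5′ to 3′ on the strand of the gene.
Mettl3, DPPW motif: gtgatggctGACCCACCTTGGgatattcac
Mettl14, EPPL motif: attctcctgGAGCCCCCTCTGgaagaatac
Mettl16, NPPF motif: tgtatgtgcAACCCTCCCTTTtttgccaac
The Mettl3 stretch lies at chr14:52297572-52297601 on the minus strand, in exon 6 of 11 of the GENCODE transcript Mettl3-201. Its capitals encode residues 395 to 398 of 580. The Mettl14 stretch lies at chr3:123374796-123374825 on the minus strand, in exon 7 of 11 of Mettl14-201. Its capitals encode residues 192 to 195 of 456. The Mettl16 stretch lies at chr11:74792274-74792303 on the plus strand, in exon 5 of 11 of Mettl16-201. Its capitals encode residues 184 to 187 of 593. Exon and residue numbers hold for these transcripts only. METTL14 lacks the aspartate that METTL3 has at the start of its motif and is not active as a methyltransferase on its own. The deposited values are sums over whole genes, so they do not show whether reads covered these exons in KO.

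None of the 9 genes passed the test between KO and WT. Mettl3, Mettl14 and Rbm15b had lower mean counts in KO, and the other 6 genes had higher ones, with Rbm15 at a fold of 1.42. A positive fold change, for 6 of the 9, was held by 50.7% of all genes tested. In edgeR's quasi-likelihood test, 0 of the 9 had a p under 0.05 after Benjamini-Hochberg adjustment over all genes, against 0.227% of the 12789 genes tested, and the lowest adjusted p among them was 0.212. At an unadjusted p under 0.05 stood 3 of the 9 (Rbm15, Mettl14 and Virma), against 12.6% of all genes. This count depended on the method. At the same threshold DESeq2 had 1 of the 9 (Rbm15), against 944 of 12789 genes. The limma fit on log2(FPKM + 1) had 2 (Rbm15 and Mettl3), against 1367 of 12546 genes. The median log2 fold change, KO minus WT, was 0.24 over the 9 genes and 0.0046 over all genes tested. After adjustment DESeq2 also called 0 of the 9, against 154 of 12789 genes. The limma fit called 0 of all 12546 genes, so its 0 of the 9 tells nothing particular about these genes. The fitted folds of the 9 were all under 1.5 in either direction. In simulated data edgeR called only 10.4% of 1.5-fold changes, so the lack of a call does not show that these genes were unchanged. Below, CPM means counts per 1000000 after TMM normalisation, intervals are exact 95% Poisson intervals that cover counting error only, and each SE comes from the fit over all genes.

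**Figure D1:**
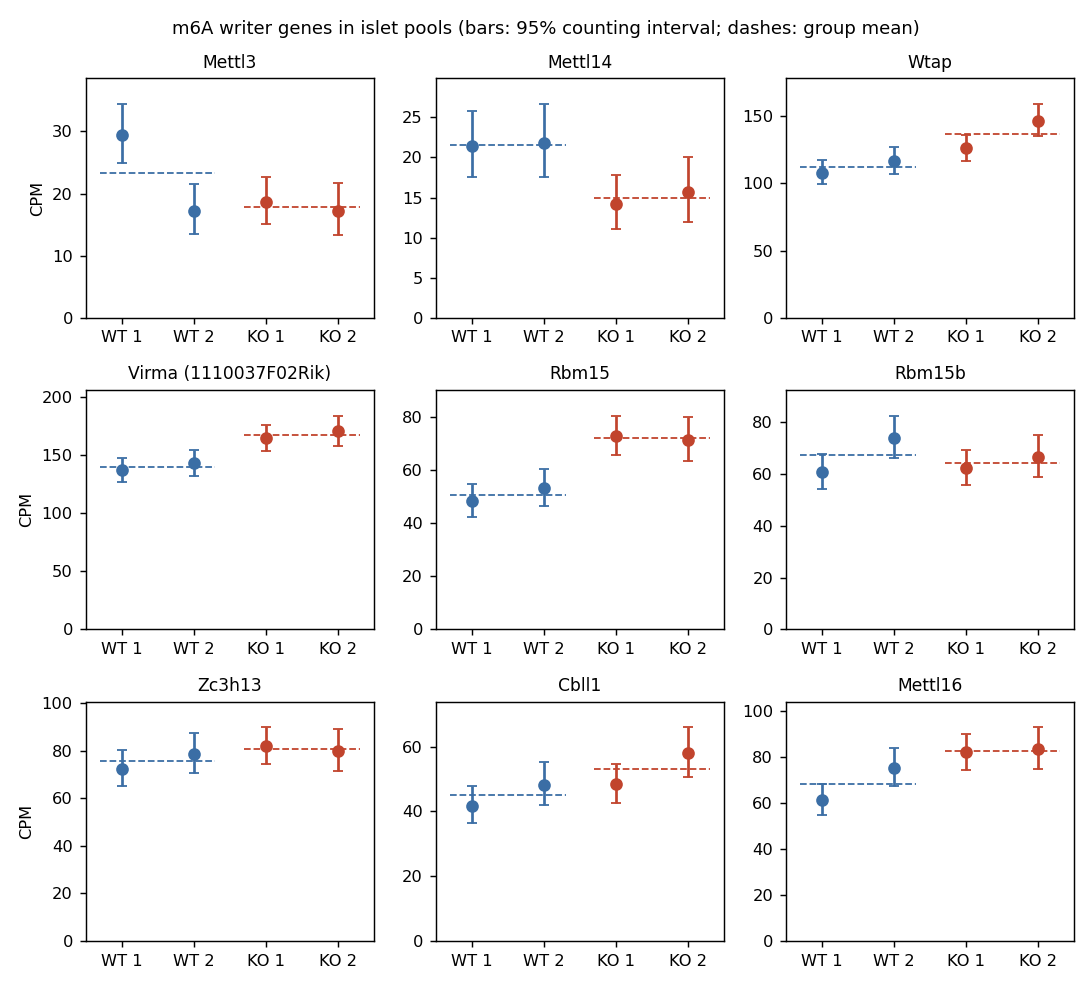
Level of each writer gene in CPM (vertical axis, from 0, a separate scale for each gene) in WT (blue) and KO (red) replicates 1 and 2. Bars are 95% counting intervals and dashes are group means; Mettl14 lies lower in both KO libraries, Rbm15 and Virma lie higher in both, and Mettl3 is high in WT replicate 1 alone.

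Mettl14, the partner subunit, was lower in both KO libraries than in both WT libraries. It was counted in 74 and 62 fragments in KO replicates 1 and 2 and in 111 and 94 fragments in WT replicates 1 and 2. This gave 14.1 and 15.6 CPM in KO against 21.4 and 21.8 CPM in WT, so the groups did not overlap. The gap was wider than the spread within either group, since the means were 14.9 ± 1.06 CPM (SD, n = 2) in KO and 21.6 ± 0.259 CPM (SD, n = 2) in WT. The log2 fold change was -0.54 ± 0.22 SE, with an edgeR adjusted p of 0.369. At this depth the counting intervals of KO replicates 1 and 2 (11.1 to 17.8 and 12.0 to 20.05 CPM) reached into those of WT replicates 1 and 2 (17.6 to 25.8 and 17.6 to 26.7 CPM). Leaving out each library in turn kept the log2 fold change between -0.61 and -0.48. By the fitted fold, KO islets held 0.690 of the WT level. In whole islets, fewer cells that express a gene and less RNA per cell cannot be told apart, and endothelial, immune and other cells add their own transcripts.

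Mettl3, the catalytic subunit, did not separate the groups by count. It was counted in 98 and 68 fragments in KO and in 152 and 74 fragments in WT, in the order of the replicates. The levels were 18.6 and 17.2 CPM in KO, 29.3 CPM in WT replicate 1 and 17.1 CPM in WT replicate 2. WT replicate 2 thus lay with the KO libraries and WT replicate 1 stood apart. The counting intervals of the WT libraries did not meet, at 24.9 to 34.4 CPM and 13.5 to 21.5 CPM, so they differed beyond counting error. The log2 fold change was -0.38 ± 0.28 SE (edgeR adjusted p = 0.634). Leaving out WT replicate 1 moved it to 0.050 (adjusted p = 0.957). Leaving out WT replicate 2 moved it to -0.71 (adjusted p = 0.180).

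**Figure D2:**
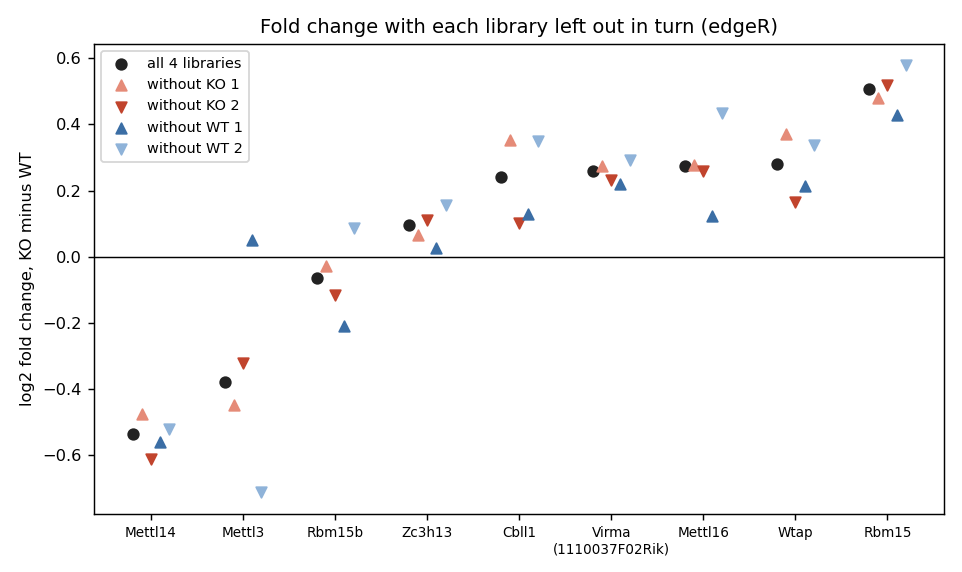
Log2 fold change, KO minus WT, of each gene (vertical axis) with all 4 libraries (black) and with each library left out (triangles). Mettl3 runs from -0.71 to 0.05 and Rbm15b from -0.21 to 0.09, while the other 7 genes stay on their side of zero.

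The FPKM values deposited by the authors, fragments scaled to transcript length and library size, set Mettl3 and Mettl14 in another order. Mettl3 had 10.8 and 11.2 FPKM in KO and 19.5 and 13.4 FPKM in WT, so on this scale the groups did not overlap. Mettl14 had 5.86 and 5.90 FPKM in KO and 7.39 and 7.85 FPKM in WT, also without overlap. By CPM, 22.3% of all genes tested were lower in KO without overlap, and the share in FPKM was not computed. The limma fit on log2(FPKM + 1) gave a log2 fold change of -0.52 for Mettl3 (adjusted p = 0.455) and -0.32 for Mettl14 (adjusted p = 0.594). With all 4 libraries Mettl14 thus had the larger difference by count, and Mettl3 by FPKM. Both orders depended on a single WT library. By count without WT replicate 2, the log2 fold change was -0.71 for Mettl3 and -0.52 for Mettl14. In FPKM the log2 ratio of Mettl3 to Mettl14, KO minus WT, went from -0.18 to 0.13 without WT replicate 1. The ratio of Mettl3 to Mettl14 in FPKM was 1.85 and 1.89 in KO and 2.63 and 1.71 in WT. The KO values lay inside the range of the WT values (two-sided exact permutation p = 1.0, where 2 against 2 libraries allow no p below 0.333).

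The scales part where the deposited count per FPKM, which follows the mean length of the transcripts to which the authors' software assigned the fragments, differed between libraries. It was turned into a length in bases with 601 genes that have 1 transcript in GENCODE, of which 73.7% came within 10% of the annotated length, so the lengths are approximate. For Mettl14 the implied mean length was 2259 and 2395 bases in KO and 2635 and 2559 bases in WT, shorter in both KO libraries. GENCODE lists 5 transcripts of Mettl14, from 382 to 7197 bases. For Mettl3 it was 1711 and 1521 bases in KO and 1523 and 1350 bases in WT, so the groups barely met, at 1521 and 1523 bases. The Mettl3 means were 1616 ± 135 bases in KO and 1437 ± 122 bases in WT (SD, n = 2 each), longer in KO. Of the 10 rows, Mettl14 alone had groups that did not overlap and means over 5% apart, shorter in KO, against 7.48% of the 8726 rows with at least 50 fragments in each library. Another 7.96% of those rows were longer in KO by the same rule. No read or exon values were analysed here, and what transcripts lie behind the implied length was not tested.

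**Figure D3:**
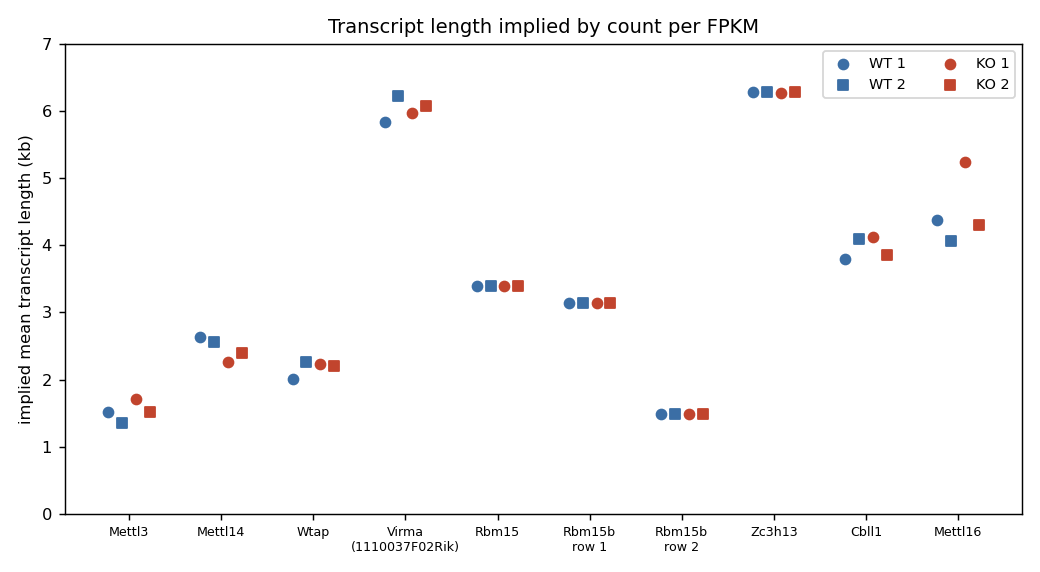
Mean transcript length implied by the deposited count per FPKM (vertical axis, kb) for each of the 10 rows, in WT (blue) and KO (red), replicate 1 as circles and replicate 2 as squares. Rbm15, Zc3h13 and both Rbm15b rows hardly move, Mettl14 is shorter in both KO libraries, and Mettl16 is longest in KO replicate 1.

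Both genes share listed spans with neighbours. Mettl3 (chr14:52294841-52305128, minus strand) overlaps Tox4, on the plus strand, by 1561 bases. Tox4 measured 109.7 and 121 CPM in KO against 131 and 138 CPM in WT, lower in both KO libraries, and edgeR put its log2 fold change at -0.23 ± 0.12 SE with an adjusted p of 0.475. The deposited table gives 1 shared span to Mettl3, Tox4 and Rab2b. Rab2b measured 17.1 and 12.8 CPM in KO against 16.5 and 21.8 CPM in WT, so WT replicate 2, low in Mettl3, was high in Rab2b. The sum of both was 35.7 and 29.97 CPM in KO against 45.8 and 38.9 CPM in WT. On that sum the groups did not overlap, a description added after the values were seen. Among all genes tested, 22.3% were lower in KO without overlap, but that share is for single genes. It is no measure for a sum chosen after the values were seen, which also left out Tox4. The annotated spans of Mettl3 and Rab2b do not overlap and lie 15295 bases apart on the same strand. Mettl14 (chr3:123368297-123386108, minus strand) shares a listed span with Sec24d, a gene of vesicle coats on the plus strand whose annotated end lies 2655 bases away. Sec24d measured 187.6 and 199.6 CPM in KO against 244 and 284 CPM in WT, with both KO libraries lower, as for Mettl14. Its log2 fold change was -0.45 ± 0.12 SE (edgeR adjusted p = 0.219). The library kit marks strand, but whether the counting used it is not given in the sources used here, and the part of these neighbours in the Mettl3 and Mettl14 values was not tested.

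Wtap, the adaptor that joins the catalytic pair to the rest, was the most abundant of the 9 per length. It measured 126 and 147 CPM in KO against 108 and 117 CPM in WT, with both KO libraries above both WT libraries. The log2 fold change was 0.28 ± 0.13 SE (edgeR adjusted p = 0.420). Its size depended on the KO library, from 0.17 with KO replicate 2 left out to 0.37 with KO replicate 1 left out.

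Virma (1110037F02Rik, chr4:11485958-11550684, plus strand), the large scaffold of the assembly, had the most fragments, from 617 to 863 per library. It measured 164 and 170.3 CPM in KO against 136.6 and 142.5 CPM in WT. Replicates lay close together and the groups did not overlap, with means of 167 ± 4.31 and 139.6 ± 4.17 CPM (SD, n = 2 each). The log2 fold change was 0.26 ± 0.11 SE (edgeR adjusted p = 0.379), and between 0.22 and 0.29 with each library left out.

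Rbm15, an RNA-binding subunit that helps to recruit the complex to its targets, including the Xist RNA, had the lowest p of the 9. It was counted in 384 and 285 fragments in KO and in 251 and 231 fragments in WT. The levels were 73.0 and 71.5 CPM in KO against 48.4 and 53.3 CPM in WT. Both KO libraries lay above both WT libraries, and the counting intervals of the groups did not meet (lowest KO bound 63.4 CPM, highest WT bound 60.6 CPM). The log2 fold change was 0.51 ± 0.13 SE, with an unadjusted p of 0.00585 and an edgeR adjusted p of 0.212. It stayed between 0.43 and 0.58 with each library left out, and limma on log2(FPKM + 1) gave 0.47 (adjusted p = 0.407).

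Rbm15b, the paralogue with a like role, did not share that pattern. Summed over its rows it measured 62.3 and 66.7 CPM in KO against 60.8 and 74.0 CPM in WT, so the KO values lay inside the WT range. The log2 fold change was -0.06 ± 0.15 SE (edgeR adjusted p = 0.897), and 0.085 with WT replicate 2 left out. The identifier ENSMUSG00000074102 matches Rbm15b in GENCODE and held 91 and 91 fragments in KO and 98 and 91 in WT. The other identifier, ENSMUSG00000045365, is not in the GENCODE release used here and held 236 and 175 fragments in KO and 217 and 229 in WT. Kept apart, the rows gave log2 fold changes of 0.01 and -0.09 in the same order. The annotated Rbm15b span of 6511 bases lies wholly inside that of Manf on the same strand and overlaps Dcaf1 (listed as Vprbp) by 75 bases on the other, so its count is uncertain.

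Zc3h13, which keeps the assembly in the nucleus, measured 81.9 and 79.9 CPM in KO against 72.6 and 78.9 CPM in WT. The nearest KO and WT libraries were closer to each other than the WT libraries were (log2 fold change 0.10 ± 0.12 SE, edgeR adjusted p = 0.800). Its size depended on the WT library, at 0.026 with WT replicate 1 left out and 0.16 with WT replicate 2 left out. Cbll1, which encodes the HAKAI protein, measured 48.3 and 57.99 CPM in KO against 41.8 and 48.2 CPM in WT. KO replicate 1 and WT replicate 2 were almost level, and the log2 fold change was 0.24 ± 0.16 SE (edgeR adjusted p = 0.587). The Cbll1 value was 0.10 when KO replicate 2 was left out, 0.13 when WT replicate 1 was, and 0.35 when KO replicate 1 or WT replicate 2 was. Mettl16, the separate enzyme, measured 81.9 and 83.4 CPM in KO against 61.3 and 75.3 CPM in WT. The KO libraries agreed closely and the WT libraries did not, and the log2 fold change was 0.28 ± 0.14 SE (edgeR adjusted p = 0.478). It ranged from 0.12 with WT replicate 1 left out to 0.43 with WT replicate 2 left out. On log2(FPKM + 1) it was 0.08 (limma adjusted p = 0.914), with an implied length of 5244 bases in KO replicate 1 against 4071 to 4370 in the other 3 libraries.

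**Figure D4:**
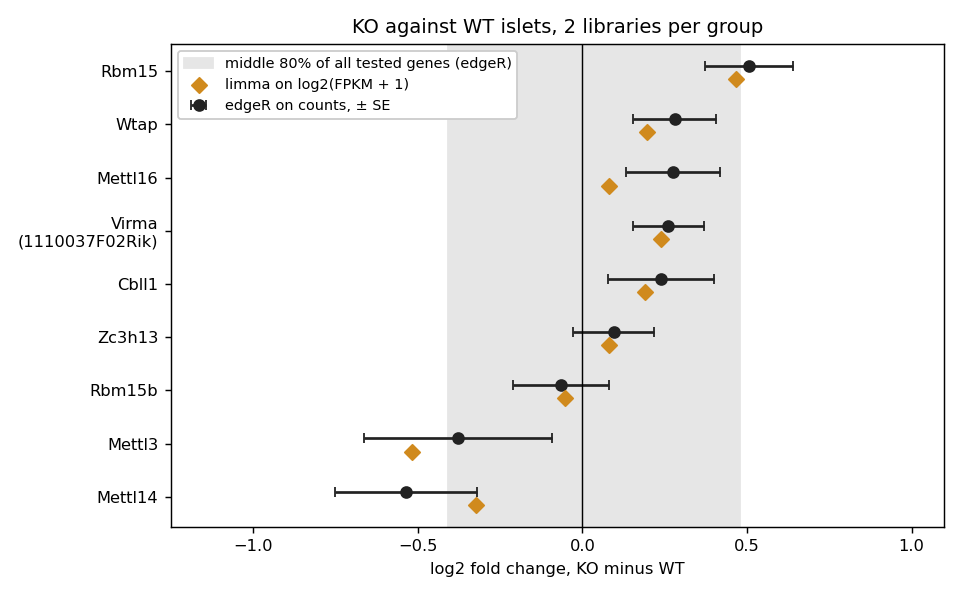
Log2 fold change, KO minus WT (horizontal axis), of each gene by edgeR on counts (black, ± SE) and by limma on log2(FPKM + 1) (orange). The grey band is the middle 80% of all genes tested by count, -0.41 to 0.48, and applies to the black points, of which Mettl14 and Rbm15 lie just outside it.

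By count, CPM in both KO libraries exceeded both WT libraries for 6 of the 9 genes (Wtap, Virma, Rbm15, Zc3h13, Cbll1 and Mettl16), against 22.7% of all genes tested. The reverse held for 1, Mettl14, against 22.3% of all genes. These gaps were small: apart from Rbm15 and Mettl14, each of the 9 had a log2 fold change inside the range that holds the middle 80% of all genes. In FPKM, the groups of Zc3h13, Cbll1 and Mettl16 overlapped.

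Compared per length, in FPKM, Wtap was highest and Mettl14 lowest of the writer genes in every library. Wtap had 57.3 ± 5.51 FPKM in KO and 49.8 ± 1.68 FPKM in WT (SD, n = 2 each). Virma had 23.4 ± 0.0970 and 19.7 ± 0.186 FPKM in the same order, and Mettl14 had 5.88 ± 0.0288 and 7.62 ± 0.325 FPKM. The Rbm15b rows summed to 26.2 ± 2.03 FPKM in KO and 27.3 ± 3.52 FPKM in WT. Whether these rows are parts of the same gene is not known, so that sum may overstate its level and is not ranked. Both rows count in the summed writer FPKM behind the shares below. Rbm15 came after Virma in KO, at 18.8 ± 0.625 FPKM. In WT, Rbm15 (13.3 ± 1.04 FPKM), Mettl16 (14.2 ± 2.96 FPKM), Mettl3 (16.4 ± 4.27 FPKM) and the Rbm15b rows taken singly (13.8 ± 1.16 and 13.5 ± 2.35 FPKM) did not differ beyond their spread. Cbll1 (11.6 ± 1.87 FPKM in KO, 9.96 ± 0.545 FPKM in WT) and Zc3h13 (10.9 ± 0.376 and 10.2 ± 0.689 FPKM) came just above Mettl14 in WT, and in KO they lay level with Mettl3 (11.0 ± 0.255 FPKM). Mettl3 had a mean of 9.78 ± 2.71% of the summed writer FPKM in WT and 6.12 ± 0.225% in KO, and the WT mean rests on WT replicate 1 (11.7%) more than on WT replicate 2 (7.86%). The share of Mettl14 was 4.52 ± 0.114% in WT and 3.27 ± 0.180% in KO, and that of Rbm15 7.90 ± 0.478% in WT and 10.4 ± 0.973% in KO. As a log2 share, KO minus WT, Mettl14 went from -0.47 in FPKM to -0.86 from counts per listed span, and Rbm15 from 0.40 to 0.19. The listed span is genomic and holds introns and, for Mettl14, a neighbouring gene, so the shares from counts are not levels per transcript length. All rows lay between the 60.7th and the 96.4th percentile of FPKM in their library.

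The genes around the writers gave no called member either, where 0.227% of all genes tested were called. Of the m6A readers and erasers, 15 of 16 were tested, 0 were called by edgeR, 1 had an unadjusted p under 0.05 against that 12.6% of all genes, and the median log2 fold change was -0.02 with 7 positive and 8 negative. The members with the highest FPKM were Hnrnpa2b1, a nuclear RNA-binding protein gene, at -0.24 ± 0.12 SE (adjusted p = 0.462), and Eif3a, a translation initiation factor gene, at -0.02 ± 0.13 SE. Of the S-adenosylmethionine cycle, which supplies the methyl group, 16 of 18 were tested, 0 were called, 3 had an unadjusted p under 0.05 (12.6% of all genes), and the median was -0.07. There Ahcyl1 stood at -0.05 ± 0.11 SE and Amd1 at 0.12 ± 0.12 SE. Mat2a, named outside the rule as the mRNA that METTL16 acts on, measured 97.9 and 107.5 CPM in KO against 86.5 and 94.3 CPM in WT. Its log2 fold change was 0.18 ± 0.12 SE (edgeR adjusted p = 0.589). Of other RNA methyltransferases, 36 of 40 were tested, 0 were called, 5 had an unadjusted p under 0.05 (12.6% of all genes), and the median was 0.06. Nsun2, a 5-methylcytosine enzyme gene, stood at -0.16 ± 0.16 SE, and Pcif1, which methylates the adenosine beside the mRNA cap, at 0.26 ± 0.13 SE (adjusted p = 0.454).

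The genes nearest to Mettl14 over the 4 libraries, by the root mean square difference of centred log2(CPM + 1) among 12250 genes, were Ahcy (0.0318), Cdc37 (0.0320) and Znrd1 (0.0362). Ahcy, which clears the S-adenosylhomocysteine left by methylation, measured 24.3 and 27.4 CPM in KO against 36.2 and 35.5 CPM in WT. The genes nearest to Mettl3 were Fbln1 (0.0128), Gstp1 (0.0366) and 3110040N11Rik (0.0419), each high in WT replicate 1 alone. Fbln1, a matrix protein gene, measured 16.9 CPM there and between 9.77 and 10.8 CPM in the other 3 libraries. With 4 libraries such likeness is a description only.

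The libraries held 4057689 to 5232084 fragments. All 8 endocrine markers were detected in every library, with a summed level of 92997 to 106653 CPM in KO and 90721 to 105384 CPM in WT, and 1 of them, Ppy, was called. Among other cell types, summed immune markers (5 of 6 found) lay at 90.4 to 124 CPM in KO and 55.2 to 76.2 CPM in WT, without overlap. Of the 4 immune markers tested, 0 were called. Of all single genes tested, 22.7% were higher in KO without overlap. Acinar markers (5 of 6 found) lay at 1953 to 4079 CPM in KO and 3080 to 4337 CPM in WT. Mesenchymal markers (5 of 5 found) lay at 1059 to 1206 CPM in KO and 847 to 1836 CPM in WT. The acinar and mesenchymal sums were both highest in WT replicate 1, the library high in Mettl3. Every other marker sum was highest in another library. KO replicate 2, with Mettl3 at 17.2 CPM, had an acinar sum of 4079 CPM, near the 4337 CPM of WT replicate 1. Ductal, endothelial and Schwann markers overlapped between the groups, no marker found was at 0 in any library, and the part of other cell types in the writer values was not tested.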

How the data were processed

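Directional paired-end libraries were made after removal of ribosomal RNA, per the labels' protocols. The submitters' processing notes name cutadapt 1.9.3, HISAT2 2.0.4, Cufflinks, Cuffdiff and build mm10; which annotation and counting settings were used is not stated there. Per the file headers, the deposited values are, for each gene and library, an estimated count and an FPKM. The authors' counts had been scaled: low values were multiples of 0.9013 (KO replicate 1), 1.155 (KO replicate 2), 0.9012 (WT replicate 1) and 1.0929 (WT replicate 2). Divided by that step, 39 of the 40 member values were whole within 0.05, the other being 0.145 off (Mettl16, KO replicate 2), and these are the fragments given. For testing, the scaled counts were rounded, rows of a symbol summed, filtered with filterByExpr, TMM-normalised and tested with edgeR 4.0.16 (R 4.3.3), two-sided, without a replicate term; the SE is the fold change over the square root of F. limma 3.58.1 on log2(FPKM + 1), with a mean FPKM of at least 1, DESeq2 1.42.0 and the other settings were alternatives. The fit was checked on simulated data, where it called 10.4% of 1.5-fold, 61.2% of 2-fold and 97% of 4-fold changes, and 1.75% of calls were false. Spans and sequences are from GENCODE M21, on the build of the files. Members and lists were chosen with earlier results of these data known. Named genes are the 9 members, up to 4 called genes per list or else its 2 highest by FPKM, the 3 nearest to Mettl3 and Mettl14, and genes sharing a member's listed span.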

Additional observations from a re-analysis of the deposited data

How the results depend on the processing

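Of 118 log2 fold changes of members under the alternatives, 115 kept their direction and stayed short of the threshold. The other 3 turned direction: Mettl3 without WT replicate 1 (0.050), Rbm15b without WT replicate 2 (0.085), and Rbm15b by the row ENSMUSG00000074102 alone (0.011), an alternative chosen after seeing the data. With libraries left out, Mettl3 ranged from -0.71 to 0.050 and Rbm15b from -0.21 to 0.085; the cause was not tested. In every alternative 0 members were called. Over all genes 29 were called, against 154 with DESeq2, 0 with limma on log2(FPKM + 1), on log2(FPKM + 0.1) and without its filter (1367, 1348 and 1541 genes at an unadjusted p under 0.05), 214 with the replicate block, and 10 to 245 with single libraries left out. Deviations of same-numbered libraries correlated at 0.19 across genes, the labels do not tie the numbers to a shared source, and under the block the lowest adjusted p of a member was 0.0940 (Rbm15). The log2 ratio of Mettl3 to Mettl14, KO minus WT, was -0.18 in FPKM, 0.22 from counts, and -0.49 to 0.13 with single libraries left out. Shares in the summed members, taken from counts per listed span, turned to -0.076 for Cbll1, -0.053 for Virma and -0.036 for Wtap. The listed span is genomic, with introns and, for Mettl3, Mettl14 and Rbm15b, neighbouring genes. Such shares are therefore not levels per transcript length, and the cause of the turn was not tested. Depth limits Mettl3 and Mettl14 most, at 62 to 152 fragments a library.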
